A study of Mus musculus with 6 samples.

Results

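COMPASS (complex of proteins associated with Set1) is the enzyme family that methylates lysine 4 of histone H3 (H3K4), and 10 genes that encode its methyltransferases and accessory subunits were followed in cell lines from mouse liver tumors. The genes were *Kmt2c*, *Kmt2d*, *Kmt2a*, *Kmt2b*, *Kdm6a*, *Setd1a*, *Setd1b*, *Ncoa6*, *Paxip1* and *Pagr1a*. They were taken by symbol from the 20856 genes with values in the deposited table, and each symbol matched 1 gene. In the files' coordinates (GRCm38) 3 of them lie on chromosome 5, *Kmt2c* at chr5:25271798-25498783, *Paxip1* at chr5:27740080-27791691 and *Setd1b* at chr5:123142193-123168629, and *Kdm6a* lies at chrX:18162575-18279936. Their level was read as RPKM, the reads on a gene scaled to its transcript length and to the depth of the library. The series compares *Myc*; sg*Trp53* with *Myc*; sg*Kmt2c* lines, 3 of each, by RNA-seq. All 6 lines came from tumors raised in adult female C57BL/6 mice by hydrodynamic injection, which delivers plasmid DNA to hepatocytes, of a *Myc* transposon with a plasmid encoding Cas9 and a guide RNA against *Trp53* or *Kmt2c*. The methods state that each line came from a different mouse and was passaged until visibly free of fibroblasts. The labels call sg*Kmt2c* replicates 2 and 3 by the names 2A and 2T1, and do not say whether these lines are related, so n = 3 rests on the methods alone. No line with *Myc* and neither edit was analysed here, so a difference between the genotypes cannot be assigned to one edit: the loss of *Trp53* in one group and of *Kmt2c* in the other cannot be told apart as its origin. Which guide and which allele each sg*Kmt2c* line carries is not stated in the labels.

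COMPASS complexes share a core of WDR5, RBBP5, ASH2L and DPY30 around a single catalytic subunit, and the catalytic subunit sets the branch. SETD1A and SETD1B deposit most H3K4 trimethylation at active promoters, KMT2A and KMT2B work with menin at developmental promoters and CpG islands, and KMT2C (MLL3) and KMT2D (MLL4) place H3K4 monomethylation at enhancers. The KMT2C and KMT2D complexes alone carry KDM6A (UTX), which removes methyl groups from lysine 27 of histone H3, and NCOA6, PAXIP1 (PTIP) and PAGR1 (PA1). Mutations of KMT2C recur in human liver cancer.

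The promoters of 3 members are shown because the results below turn on these genes: *Kmt2c* is the gene targeted in one genotype, *Kmt2d* is its closest relative, and *Kdm6a* was the member whose level separated the genotypes. Each sequence runs 5′ to 3′ along the gene's strand from 250 bases before to 50 bases after the RefSeq start (GRCm38.p6, the build of the files, with the table covering 8 of the 10 members). Capitals mark CACGTG, the E-box that MYC binds, and GGGCGG or its complement CCGCCC, the GC box bound by SP1-type factors. Motifs were searched on both strands and neighbouring GC boxes could overlap.
*Kmt2c*, chr5:25498734-25499033, minus strand: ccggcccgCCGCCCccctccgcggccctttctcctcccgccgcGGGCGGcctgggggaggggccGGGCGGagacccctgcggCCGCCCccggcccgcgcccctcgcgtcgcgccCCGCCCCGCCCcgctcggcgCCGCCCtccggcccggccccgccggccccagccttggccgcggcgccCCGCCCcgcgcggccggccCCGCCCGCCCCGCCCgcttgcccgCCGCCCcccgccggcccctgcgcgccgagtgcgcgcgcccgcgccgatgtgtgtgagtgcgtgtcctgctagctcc
*Kmt2d*, chr15:98871156-98871455, minus strand: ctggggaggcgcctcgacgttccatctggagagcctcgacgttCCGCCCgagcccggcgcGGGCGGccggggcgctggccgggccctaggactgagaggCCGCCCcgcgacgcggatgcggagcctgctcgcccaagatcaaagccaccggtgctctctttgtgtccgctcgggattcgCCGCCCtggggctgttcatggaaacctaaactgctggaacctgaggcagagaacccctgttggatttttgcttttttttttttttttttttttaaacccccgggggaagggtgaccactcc
*Kdm6a*, chrX:18162325-18162624, plus strand: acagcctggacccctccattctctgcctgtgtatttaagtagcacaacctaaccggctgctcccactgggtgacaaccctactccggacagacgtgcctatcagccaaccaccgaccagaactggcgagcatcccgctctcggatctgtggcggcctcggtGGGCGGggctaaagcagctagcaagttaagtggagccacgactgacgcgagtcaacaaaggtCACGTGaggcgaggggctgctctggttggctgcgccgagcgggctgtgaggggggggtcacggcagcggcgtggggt
The *Kmt2c* window held 56 CpG dinucleotides, more than 99.8% of the 27025 promoters in the table, with 88% G or C and 12 GC boxes. The *Kmt2d* window held 27 CpG dinucleotides and 4 GC boxes, and the *Kdm6a* window 21 CpG dinucleotides and 1 GC box. Of the 8 members with a promoter, *Kdm6a* was the only one with a CACGTG, which 7.24% of all promoters in the table hold, and 5 of the 8 held a GC box, which 35.9% of all promoters hold. These are matches of letters and not measured binding. The *Ncoa6* window, counted among the 8, lies at chr2:155440734-155441033, inside the gene body and away from its 5′ end. It held 1 CpG dinucleotide and no GC box.

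None of the 10 members differed between the genotypes past an adjusted p under 0.05 (limma on log2(RPKM + 1) over the 11617 genes that reached 1 RPKM in at least 3 libraries). Over all genes tested 15 did, or 0.129%, so a count of 0 among 10 genes is what the background share gives. No member reached an unadjusted p under 0.05 either, against 8.58% of all genes tested, and the adjusted p-values of the members lay between 0.635 and 0.998. All 10 members passed the filter, with 61 to 2290 reads behind each value and levels between 3.49 and 28.4 RPKM. The log2 fold change of sg*Kmt2c* over sg*Trp53* was below 0 for 7 members and above 0 for 3, and its median of -0.096 lay beside a median of -0.086 over all genes tested. The genotypes did not overlap for 1 member, *Kdm6a*, against 16.2% of all genes tested, which is also near what the background share gives for 10 genes. For 6 members the 95% confidence interval stayed within a 2-fold change in either direction, as it did for 45.9% of all genes tested. For the other 4, *Kmt2c*, *Kmt2a*, *Kdm6a* and *Paxip1*, it reached past 2-fold, so these lines do not bound the change to under 2-fold.

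**Figure D1:**
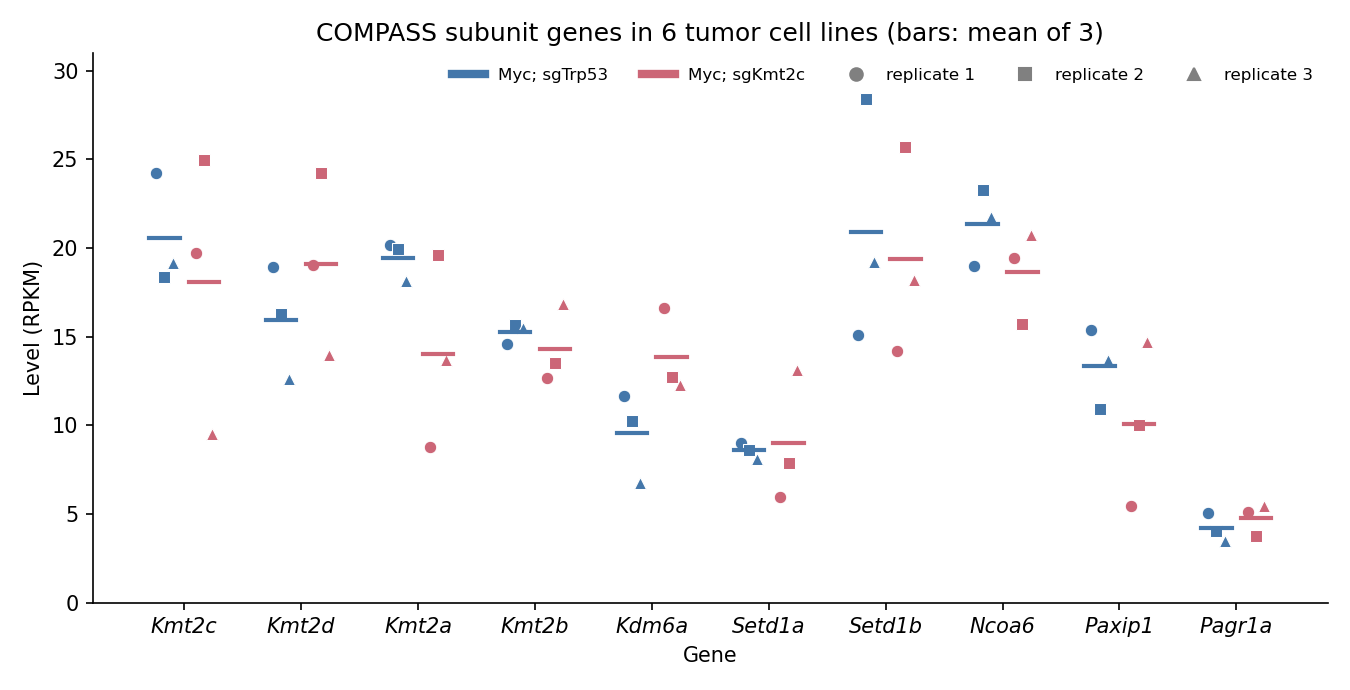
Level in RPKM (y axis) of the 10 COMPASS genes (x axis) in each of the 6 libraries; blue stands for sg*Trp53*, red for sg*Kmt2c*, the symbols for the replicates and the bars for the mean of 3. The genotypes overlap for every gene except *Kdm6a*, and *Pagr1a* is the lowest, between 3.49 and 5.47 RPKM.

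**Figure D2:**
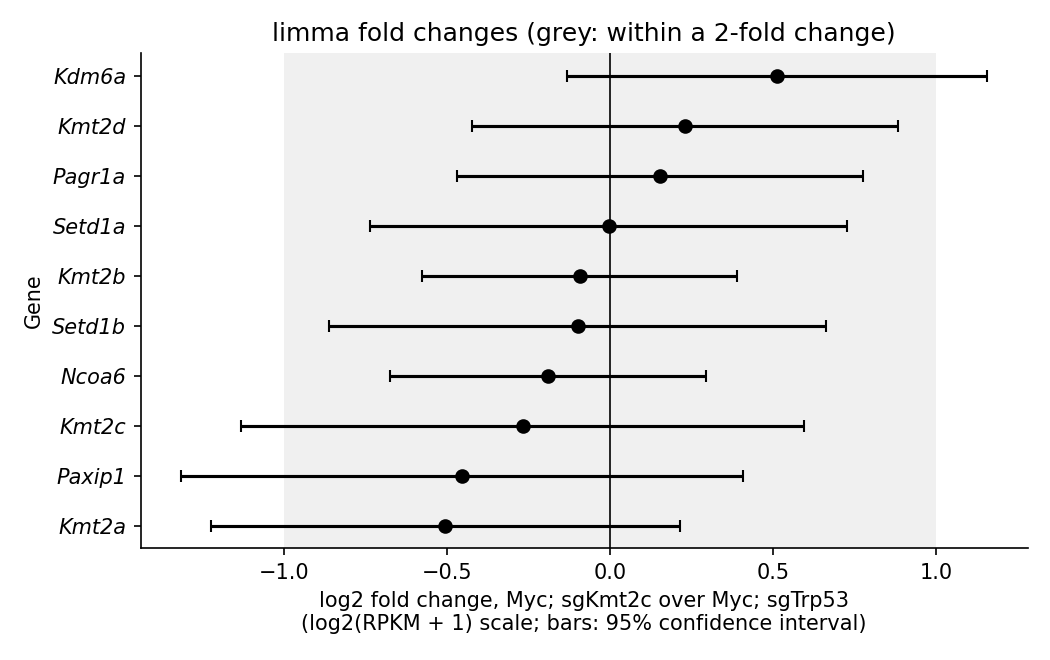
log2 fold change of sg*Kmt2c* over sg*Trp53* on the log2(RPKM + 1) scale (x axis) with its 95% confidence interval (bars) for the 10 members (y axis), from limma; grey marks changes within 2-fold. All 10 intervals include 0, and those of *Kmt2c*, *Kmt2a*, *Kdm6a* and *Paxip1* reach past 2-fold.

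The libraries differed in depth and in marker genes of the tissue. The sg*Trp53* libraries held 5312182 to 6878625 reads on genes and the sg*Kmt2c* libraries 3680068 to 4704539. *Trp53* itself measured 17.2, 17.6 and 19.4 RPKM in sg*Trp53* replicates 1, 2 and 3, against 92.2, 124 and 121 RPKM for replicates 1, 2 and 3 of sg*Kmt2c*; the log2 fold change of 2.56 passed the threshold (adjusted p = 0.0140, limma). Under 17 alternatives it lay between 2.48 and 2.69, with an adjusted p of 0.0766 to 0.108 (limma) in the 7 that blocked on replicate number, merged sg*Kmt2c* replicates 2 and 3 or left out a library other than sg*Kmt2c* replicate 1, and it passed in the other 10. sg*Kmt2c* replicate 1 stood apart: the 9 hepatocyte and epithelial markers summed to 5170 RPKM there against 232 and 678 RPKM in the other sg*Kmt2c* lines and 29.6 to 806 RPKM in the sg*Trp53* lines. *Hnf4a* was at 1186 RPKM in that line and at most 170 RPKM elsewhere. That level came from 2409 reads, whereas 3986 reads on *Cdh1* gave 191 RPKM there. The sum in RPKM therefore depends on the transcript lengths used. In the same line 9 of 10 fibroblast markers had at most 3 reads. *Alb*, the defining product of mature hepatocytes, was between 0.644 and 4.36 RPKM in all 6 lines. The fibroblast markers summed to 18.6, 1103 and 294 RPKM for the sg*Trp53* replicates against 0.282, 156 and 122 RPKM for the sg*Kmt2c* replicates, with *Pdgfra* at most 1 RPKM and *Lum* at or near 0 throughout. The immune markers summed to 21.7 to 58.2 RPKM for sg*Trp53* and 5.51 to 15.2 RPKM for sg*Kmt2c*, with *Cd3e* at 0 and *Ptprc* near 0. That difference lay mainly in the macrophage genes *Lyz2* (17.1 to 45.3 against 0 to 12.4 RPKM, adjusted p = 0.427, limma) and *Csf1r* (1.70 to 9.999 against 0 to 0.967 RPKM, adjusted p = 0.440, limma). Their genotypes did not overlap, nor did those of *Adgre1* (too low to test). *Cd68*, also a macrophage gene, did overlap, at 7.60, 2.60 and 4.01 RPKM for sg*Trp53* against 5.35, 5.29 and 1.71 RPKM for sg*Kmt2c* (adjusted p = 0.919, limma). The fibroblast gene *Dcn* was without overlap (5.48 ± 3.99 against 0.0827 ± 0.143 RPKM). Beside these, 10.4% of all genes tested did not overlap in this direction. The 5 endothelial markers summed to at most 0.284 RPKM, *Emcn* being at 0 and *Cdh5* at 0 in the sg*Kmt2c* lines. Their part in the values of the members was not tested, and in bulk RNA fewer cells of a type and less RNA per cell cannot be told apart.

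*Setd1a* and *Setd1b*, the catalytic subunits of the SET1 branch, were the members whose direction was least settled. *Setd1a* stood at 9.02, 8.61 and 8.12 RPKM in sg*Trp53* replicates 1, 2 and 3, against 5.95, 7.86 and 13.1 RPKM for replicates 1, 2 and 3 of sg*Kmt2c*. The sg*Trp53* lines lay within 1.11-fold of each other, whereas the sg*Kmt2c* lines spanned 2.20-fold and held both the lowest and the highest value of the 6. The means were 8.58 ± 0.451 and 8.98 ± 3.72 RPKM (SD, n = 3 lines each), and the log2 fold change was -0.0042 with a 95% interval from -0.74 to 0.73 (adjusted p = 0.998, limma). Without sg*Kmt2c* replicate 1 it was 0.22, and without sg*Kmt2c* replicate 3 it was -0.29. The gene body of *Setd1a* (chr7:127776670-127800122) overlaps that of *Hsd3b7*, on the same strand, over 14515 bases in the files' coordinates. *Hsd3b7* encodes a bile acid synthesis enzyme. It had 243, 60 and 118 reads in sg*Trp53* replicates 1 to 3, against 465, 291 and 336 in the sg*Kmt2c* replicates. How shared reads were assigned could therefore bear on *Setd1a* and on its comparison between the genotypes, which was not tested.

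*Setd1b* reached 15.1, 28.4 and 19.2 RPKM in sg*Trp53* replicates 1, 2 and 3, against 14.2, 25.7 and 18.2 RPKM for replicates 1, 2 and 3 of sg*Kmt2c*. Its spread was alike in both genotypes, 1.88-fold and 1.81-fold from lowest to highest line. The means were 20.9 ± 6.83 and 19.4 ± 5.85 RPKM (SD, n = 3 each), and the log2 fold change was -0.10 (-0.86 to 0.66, adjusted p = 0.931, limma). The lowest, middle and highest line lay at similar levels in both genotypes. Without sg*Trp53* replicate 2, the highest line, the log2 fold change was 0.14. The gene listed as *Gm26745*, of unknown strand, overlaps *Setd1b* over 26437 bases, the whole gene body. *Gm26745* had 1 to 7 reads per library, and how shared reads were assigned could bear on the level of *Setd1b*.

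Of the accessory subunits found only in the KMT2C and KMT2D complexes besides *Kdm6a*, namely *Ncoa6*, *Paxip1* and *Pagr1a*, none passed the test. *Ncoa6*, a coactivator of nuclear receptors (chr2:155390656-155473894), measured 19.0, 23.3 and 21.7 RPKM in sg*Trp53* replicates 1, 2 and 3, against 19.4, 15.7 and 20.7 RPKM for replicates 1, 2 and 3 of sg*Kmt2c*. It varied little, by 1.48-fold between the lowest and the highest of the 6 libraries, and its groups overlapped. Its means were 21.3 ± 2.18 and 18.6 ± 2.59 RPKM, and the log2 fold change of -0.19 had an interval from -0.68 to 0.29 (adjusted p = 0.780, limma), the narrowest but 1 among the members.

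*Paxip1* encodes a protein with BRCT domains that also acts in the DNA damage response, and it was the most variable member. It was found at 15.4, 10.9 and 13.7 RPKM in sg*Trp53* replicates 1, 2 and 3, against 5.44, 10.0 and 14.7 RPKM for replicates 1, 2 and 3 of sg*Kmt2c*. The value in sg*Kmt2c* replicate 1, from 150 reads, was the lowest, while sg*Kmt2c* replicate 3 lay between sg*Trp53* replicates 1 and 3. The range over 6 libraries was 2.83-fold, of which 1.41-fold was seen among the sg*Trp53* lines and 2.70-fold among the sg*Kmt2c* lines. The means were 13.3 ± 2.25 and 10.1 ± 4.64 RPKM, and the log2 fold change was -0.45 (-1.32 to 0.41, adjusted p = 0.727, limma). Without sg*Kmt2c* replicate 1, the line with the epithelial marker levels given above, it was -0.11, and without sg*Kmt2c* replicate 3 it was -0.75 (unadjusted p = 0.0667, adjusted p = 0.415, limma).

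*Pagr1a*, whose product binds PAXIP1 directly, was the lowest member. It stood at 5.02, 4.05 and 3.49 RPKM in sg*Trp53* replicates 1, 2 and 3, against 5.11, 3.76 and 5.47 RPKM for replicates 1, 2 and 3 of sg*Kmt2c*, from 61 to 135 reads. Its groups overlapped and the means were 4.19 ± 0.775 and 4.78 ± 0.903 RPKM; the log2 fold change was 0.15 (-0.47 to 0.78, adjusted p = 0.860, limma). *Pagr1a* (chr7:127015033-127020327) overlaps the gene listed as *Pagr1b* over 1452 bases and *Prrt2* over 3557 bases, all on the minus strand. *Pagr1b* had 0 reads in 5 libraries and 4 reads in sg*Kmt2c* replicate 1, and *Prrt2* had at most 1 read in any library, so reads that could belong to more than one of these genes make the level of *Pagr1a* uncertain. For the pair whose products bind each other, the ratio of *Paxip1* to *Pagr1a* reads was 4.07, 3.58 and 5.20 for sg*Trp53* replicates 1 to 3 and lower, at 1.42, 3.54 and 3.57, for the sg*Kmt2c* replicates and the nearest values, 3.58 and 3.57, almost met.

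*Kmt2c* RNA was not lower in the lines that carry the guide against it beyond the spread between lines. It measured 24.2, 18.4 and 19.2 RPKM in sg*Trp53* replicates 1, 2 and 3, against 19.7, 25.0 and 9.51 RPKM for replicates 1, 2 and 3 of sg*Kmt2c*. The sg*Kmt2c* lines held the highest value, in replicate 2, and the lowest, in replicate 3, where 262 reads fell on the gene against 593 to 952 in the other libraries. The means were 20.6 ± 3.17 and 18.1 ± 7.86 RPKM (SD, n = 3 each), and the log2 fold change was -0.27 (-1.13 to 0.60, adjusted p = 0.819, limma). Without sg*Kmt2c* replicate 3 it was 0.11, so the direction rested on that line. Total RNA of the gene does not check the edit, since a small insertion or deletion need not lower it.

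Set against its relative *Kmt2d*, which makes the other catalytic subunit of the same branch, *Kmt2c* did separate the genotypes; this pair was singled out after the values were seen. *Kmt2c* took 29.4%, 26.8% and 33.1% of the reads on both genes in sg*Trp53* replicates 1 to 3, against 25.2%, 25.1% and 18.1% for sg*Kmt2c*. Every sg*Kmt2c* line lay below every sg*Trp53* line, but the exact binomial 95% intervals, which cover counting error only, met between sg*Trp53* replicate 2 (25.0% to 28.7%) and sg*Kmt2c* replicates 1 (23.4% to 26.96%) and 2 (23.4% to 26.9%). The mean share was 29.8 ± 3.15% and 22.8 ± 4.06%, and the log2 ratio of *Kmt2c* to *Kmt2d* reads was lower by 0.53 (log2 difference -0.53; two-sided exact permutation test, p = 0.1, the smallest that 3 against 3 allows). Leaving out each line in turn gave -0.63 to -0.33, with the value nearest 0 without sg*Kmt2c* replicate 3. The share compares reads and not levels, because the genes differ in length.

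**Figure D3:**
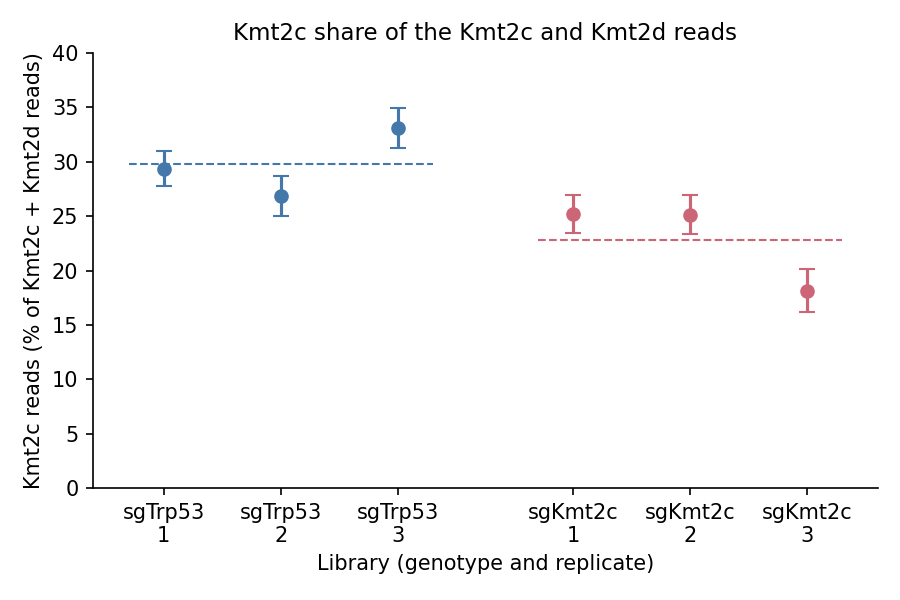
Reads on *Kmt2c* as a percentage of the reads on *Kmt2c* and *Kmt2d* together (y axis) in each library (x axis); bars are exact binomial 95% confidence intervals and dashed lines the mean of 3 libraries. The sg*Trp53* lines lie between 26.8% and 33.1%, and the sg*Kmt2c* lines between 18.1% and 25.2%.

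Among all 45 pairs of members, 4 had ratios that did not overlap between the genotypes, or 8.89%, beside 15.5% of all pairs among the 11076 tested genes with a read in every library. Besides *Kmt2c* to *Kmt2d*, the ratio of *Kmt2d* to *Kmt2a* reads was 1.13, 0.985 and 0.837 for sg*Trp53* and higher, at 2.60, 1.49 and 1.23, for sg*Kmt2c*. The ratio of *Kmt2a* to *Kdm6a* reads was 4.82, 5.41 and 7.48 for sg*Trp53* against 1.47, 4.30 and 3.10, and that of *Paxip1* to *Pagr1a* is given above. Each of these reached p = 0.1 in the exact permutation test, the smallest possible, and no pair passed after correction over the 45 pairs (lowest adjusted p = 0.783, exact permutation test).

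*Kdm6a* is X-linked, escapes X inactivation and encodes the H3K27 demethylase of the KMT2C and KMT2D complexes. It was found at 11.7, 10.3 and 6.74 RPKM in sg*Trp53* replicates 1, 2 and 3, against 16.6, 12.7 and 12.3 RPKM for replicates 1, 2 and 3 of sg*Kmt2c*. Every sg*Kmt2c* line lay above every sg*Trp53* line, the nearest being 12.3 RPKM in sg*Kmt2c* replicate 3 and 11.7 RPKM in sg*Trp53* replicate 1. The nearest values were 22.7 and 21.3 under TPM scaling and 12.1 and 10.98 under median-of-ratios scaling, again without overlap, yet the fold change missed the threshold (log2 fold change 0.51, unadjusted p = 0.101, limma) and stayed above 0 under all 17 alternatives, between 0.31 and 0.66. A non-overlap in this direction was found for 5.72% of all genes tested. The highest value was that of sg*Kmt2c* replicate 1, and without that line the log2 fold change was 0.38. The lowest value was that of sg*Trp53* replicate 3, and without that line it was 0.31, the lowest of the 17 alternatives. *Xist*, which is transcribed from an inactive X chromosome, was at 1349 to 3116 RPKM across sg*Trp53* libraries and 2637 to 5929 RPKM across sg*Kmt2c* libraries; its part in the level of *Kdm6a* was not tested.

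*Kmt2a* and *Kmt2b*, the menin-bound branch, contrasted in spread. *Kmt2a* reached 20.2, 19.9 and 18.1 RPKM in sg*Trp53* replicates 1, 2 and 3, against 8.80, 19.6 and 13.7 RPKM for replicates 1, 2 and 3 of sg*Kmt2c*. The sg*Trp53* lines lay within 1.11-fold of each other and the sg*Kmt2c* lines spanned 2.23-fold, the lowest being replicate 1. Without that line the log2 fold change went from -0.51 to -0.23, and without sg*Kmt2c* replicate 2 it was -0.77 with an unadjusted p of 0.0319 (adjusted p = 0.562, limma). *Kmt2b* was at 14.6, 15.6 and 15.5 RPKM against 12.7, 13.5 and 16.8 RPKM and was the steadiest member, with 1.33-fold between the lowest and the highest library. *Kmt2d* was at 18.9, 16.3 and 12.6 RPKM across sg*Trp53* against 19.0, 24.2 and 14.0 RPKM across sg*Kmt2c*, with groups that overlapped.

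For most members, as for most genes, the sg*Kmt2c* lines were further apart than the sg*Trp53* lines. The SD of the log2 values was larger among the sg*Kmt2c* than among the sg*Trp53* lines for 8 of 10 members, and for 70.7% of all genes tested. Its median over members was 0.39 in the sg*Kmt2c* and 0.21 in the sg*Trp53* lines, against 0.41 and 0.25 over all genes tested. The lowest of the 6 values lay in sg*Kmt2c* replicate 1 for 5 members, *Kmt2a*, *Kmt2b*, *Setd1a*, *Setd1b* and *Paxip1*, against 35.9% of all genes tested. The highest lay there for 1 member, *Kdm6a*, against 23.6%. Each of these counts is near what the background share gives for 10 genes.

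**Figure D4:**
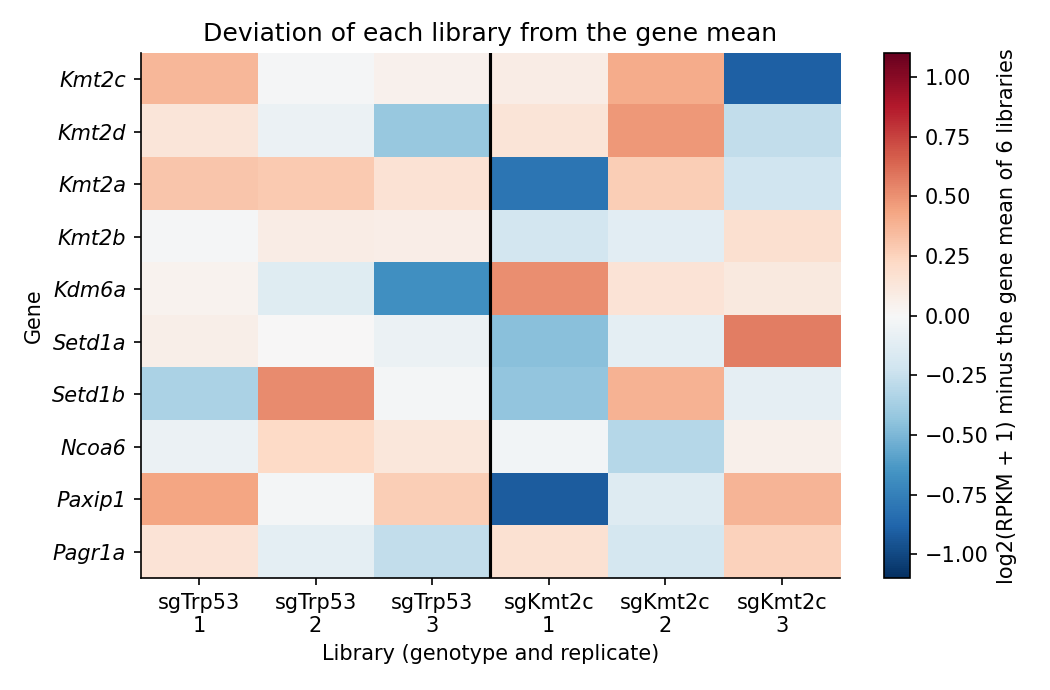
Deviation of log2(RPKM + 1) in each library (x axis) from the gene's mean over 6 libraries (colour; red above, blue below), for the 10 members (y axis). The deepest blue cells are *Kmt2c* in sg*Kmt2c* replicate 3 (9.51 RPKM) and *Paxip1* and *Kmt2a* in sg*Kmt2c* replicate 1 (5.44 and 8.80 RPKM).

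In the order of levels per length, *Setd1b* (20.1 ± 5.75 RPKM, SD, n = 6 libraries), *Ncoa6* (19.98 ± 2.61) and *Kmt2c* (19.3 ± 5.54) led. *Kmt2d* (17.5 ± 4.18), *Kmt2a* (16.7 ± 4.57) and *Kmt2b* (14.8 ± 1.52) followed, then *Kdm6a* (11.7 ± 3.24), *Paxip1* (11.7 ± 3.72), *Setd1a* (8.78 ± 2.38) and *Pagr1a* (4.48 ± 0.819). Of the 9 neighbouring pairs in this order, *Setd1a* and *Pagr1a* alone kept their order in 6 of 6 libraries (two-sided exact sign-flip permutation test, p = 0.03125, the smallest possible; adjusted over 9 pairs p = 0.281), so no pair passed after correction. The other 8 pairs of neighbours did not keep 1 order in all libraries, so on the listed lengths neither *Kmt2c* and *Kmt2d* nor *Kmt2a* and *Kmt2b* could be ranked.

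The top of the order depended on the transcript length by which the authors divided. For *Kmt2c* the listed length was 6443 bases, whereas its longest protein-coding transcript in GENCODE vM1 has 16901 bases and its merged exons 20296 bases. The listed length is that of an annotated *Kmt2c* transcript whose start was not found, so the 19.3 RPKM above divides reads from the whole gene by an incomplete transcript. For *Setd1b* the listed length was 3365 bases, that of a transcript annotated as a retained intron, against 7663 and 10874 bases. With the longest transcript, an alternative chosen after the values were seen, *Kmt2c* went from 19.3 to 7.37 RPKM and from rank 3 to rank 9, and *Setd1b* from 20.1 to 8.84 RPKM and from rank 1 to rank 7. *Ncoa6* then led at 19.98 RPKM, followed by *Kmt2d* at 17.5 RPKM, and *Kmt2d* stood above *Kmt2c* in 6 of 6 libraries, where the listed lengths put *Kmt2c* above *Kmt2d* in 5 of 6. The merged exons also put *Kmt2d* above *Kmt2c* in 6 of 6. For the other members the longest transcript was the listed length or nearly so, except for *Paxip1* (5052 against 5850 bases). A comparison of one gene between the genotypes is little touched by its length, which cancels in the ratio except through the pseudocount.

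**Figure D5:**
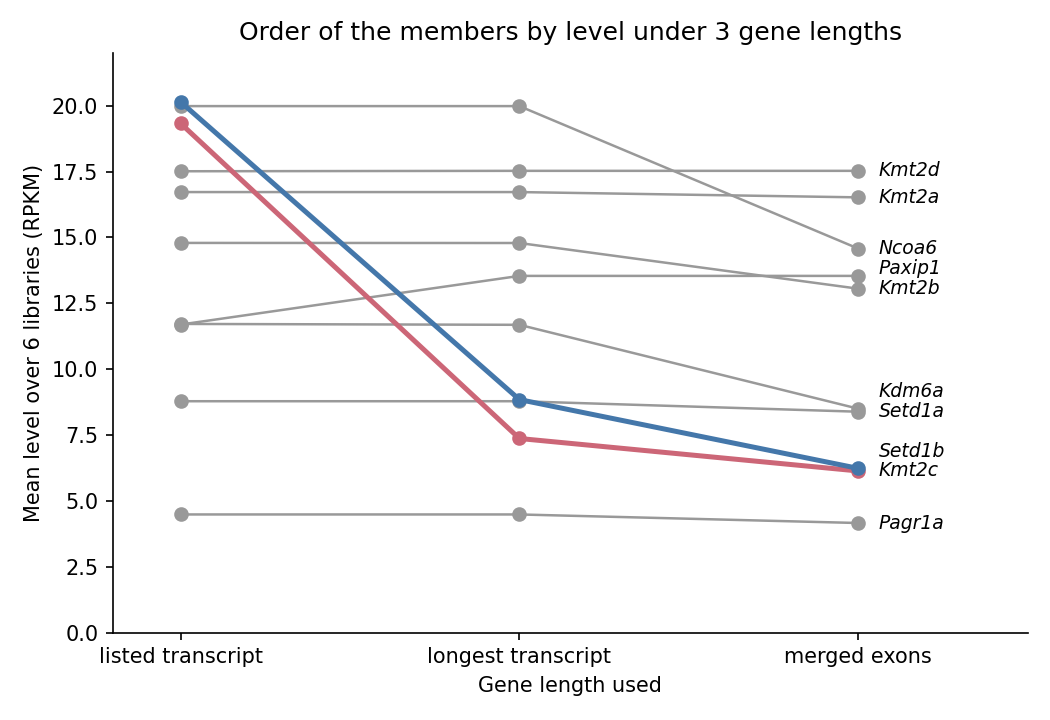
Mean level over 6 libraries in RPKM (y axis) of each member when reads are divided by the listed transcript length, the longest protein-coding transcript or the merged exons (x axis). *Kmt2c* (red) and *Setd1b* (blue) drop from 19.3 and 20.1 RPKM to 7.37 and 8.84 RPKM with the longest transcript, and the other lines stay nearly level or move less.

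Of the 12 genes of the shared core and the class-specific partners, none passed the test. All 12 had log2 fold changes below 0, with a median of -0.28 against -0.086 over all genes tested, and the lowest adjusted p was 0.628 (limma). Most genes tested also lay below 0, as their median did, and their exact share is not given here. Across 17 alternatives, which reuse the same libraries, 11 or 12 of the 12 stayed below 0. Without sg*Kmt2c* replicate 1 the median of the 12 was -0.14, and that of all genes in this setting is not given here. *Wdr5*, the core subunit that bridges the catalytic subunits to RBBP5, was the highest of the core on the listed lengths. It was at 159, 147 and 174 RPKM for sg*Trp53* against 119, 116 and 144 RPKM for sg*Kmt2c*. That rank depends on the lengths, since its 342 to 956 reads per library were near the 360 to 862 of *Ash2l*, at 31.5 to 41.1 RPKM. *Wdr5* alone of the 12 did not overlap between the genotypes, with means of 160 ± 13.4 and 126 ± 15.2 RPKM and a log2 fold change of -0.34 (adjusted p = 0.632, limma), and 10.4% of all genes tested did not overlap in this direction. *Psip1*, the chromatin reader that tethers menin and KMT2A, had the largest difference, from 78.5, 74.8 and 67.3 RPKM to 22.2, 35.4 and 78.7 RPKM, with groups that overlapped since sg*Kmt2c* replicate 3 was the highest of all. *Men1*, which encodes menin, was at 36.6 ± 5.34 and 30.5 ± 2.76 RPKM, and *Dpy30* at 50.8 ± 17.4 and 45.6 ± 15.2 RPKM. *Cxxc1* and *Wdr82*, the partners of SETD1A and SETD1B, were at 27.7 ± 4.83 and 21.9 ± 5.74 RPKM and at 49.0 ± 4.77 and 38.8 ± 10.5 RPKM.

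The 6 enzymes that remove H3K4 or H3K27 methylation, among them *Kdm1a*, which encodes LSD1, gave 0 calls, with 5 log2 fold changes above 0 and 1 below. *Kdm1a* was the one below, at 63.2, 62.1 and 58.5 RPKM against 35.4, 35.3 and 63.9 RPKM (log2 fold change -0.50, adjusted p = 0.639, limma), and as with *Psip1* sg*Kmt2c* replicate 3 held the highest value. Of the 8 other genes named as H3K4 methyltransferases, 6 were tested and none passed. *Ash1l*, whose product is now known mainly as an H3K36 methyltransferase, did not overlap between the genotypes, at 18.9, 20.03 and 19.7 RPKM against 13.6, 17.5 and 17.1 RPKM (adjusted p = 0.712, limma). In this direction 10.4% of all genes tested did not overlap. *Smyd1*, a muscle gene, had at most 3 reads in any library, and *Prdm9*, known from meiotic cells, had 12 to 38 reads, at 3.14 ± 1.01 and 3.56 ± 1.41 RPKM. The Y-linked relatives *Uty* and *Kdm5d* were looked up but had no row with values, so they could not be analysed.

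The members resembled each other to very different degrees across the 6 libraries, by the root mean square difference of their log2(RPKM + 1) values after each gene's mean was taken off. *Kmt2b* and *Ncoa6*, both steady, were closest at 0.14. *Paxip1* and *Kdm6a* were farthest at 0.74, and *Paxip1* and *Kmt2c* next at 0.70, although the products of all 3 share a complex. Among all genes with an SD of at least 0.2, the 3 closest to each member were taken. *Kmt2b* and *Ncoa6* had an SD of 0.141 and 0.186, below that limit, so genes as steady as these were not eligible. For *Setd1a* they were *Trmt11*, which encodes a tRNA methyltransferase subunit (difference 0.036), the replication gene *Gins1* (0.057) and the splicing gene *Prpf31* (0.073). For *Setd1b* they included *Txndc5* (0.069) and *Pld3*, and for *Ncoa6* they were *Zfp191* (0.051), *Morc2a* and *Mrps28*. *Polq*, which encodes DNA polymerase theta, was closest to *Paxip1* (0.048), before the nucleoporin gene *Pom121* (0.050) and *Tex10* (0.078). *Mrpl39* (0.067), *Tmem38b* and the histone chaperone gene *Hira* were closest to *Pagr1a*. *Kmt2c* had *Ccdc28a* (0.062), *Gm8121* and *Gnpda2*, while *Kmt2d* had *Qtrt1* (0.049), *Ift43* and *Hgsnat*. *Kmt2a* had *Ccdc77* (0.050), *Stat5b* and *Rtel1*, and *Kmt2b* had *Elavl1* (0.082), *Ybey* and *Cpsf2*. *Kdm6a* had *Man2c1* (0.065), *Taf1b* and *Pcyt2*. With 6 libraries and a whole transcriptome to choose from, close matches are found for any pattern, and no test was made of them.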

How the data were processed

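Per the labels and the study's methods, the authors made TruSeq libraries with a kit that does not mark strand, removed adaptors with Trimmomatic, aligned to GRCm38 with STAR and counted with HTSeq. The deposited table holds RPKM computed by the authors with 1 listed transcript length per gene; multiplied by that length, 100% of values gave whole reads (within 0.01). All libraries ran in the same 2 lanes of 1 flow cell. The authors' DESeq2 1.8.2 comparison and 6 further sample columns were not used, and the 209 rows without values were left out.

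Genotypes were compared with limma 3.58.1 (R 4.3.3, eBayes with trend) on log2(RPKM + 1), with Benjamini-Hochberg adjustment. Genes of at least 1 RPKM in at least 3 libraries were tested. The procedure was also run on simulated counts with the same dispersion for every gene and planted changes larger than any member's. That run cannot say whether changes of the members' size would be found. Lengths came from GENCODE vM1, used for lengths and strands only, and promoters from RefSeq. Alternatives changed pseudocount, filter, scaling, moderation, block and libraries, and used limma voom on recovered reads. All members and list genes with an unadjusted p under 0.05 or without overlap were named, and the 3 nearest genes by pattern, except where an item is not reported here; others were named as examples of their list. Members and lists were chosen with earlier results of these data known. Between replicates of a genotype the chi-square per gene was 26.5 to 80.3, so none was a copy of another. It was 34.0 between sg*Kmt2c* replicates 2 and 3, against 80.3 and 76.2 for the pairs with sg*Kmt2c* replicate 1. The sg*Trp53* pairs gave 26.5 to 45.2, and the value of 34.0 does not settle whether those lines are related. Depth was 3680068 to 6878625 reads per library.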

Additional observations from a re-analysis of the deposited data

How the results depend on the processing

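No member passed an adjusted p under 0.05 under any of the 17 alternatives, and 162 of 170 member fold changes kept their direction; the lowest adjusted p was 0.415. The direction of *Setd1a* turned to 0.052 under quantile normalization and 0.066 under median-of-ratios scaling. Leaving out each library gave log2 fold changes of -0.54 to 0.11 for *Kmt2c*, -0.29 to 0.22 for *Setd1a* and -0.31 to 0.14 for *Setd1b*. The count over all genes, 15 in the main test, was 6 with a pseudocount of 0.1, 5 with no filter on low values, 4 with limma voom, 0 with replicates 2 and 3 of sg*Kmt2c* merged, since their names (2A and 2T1) leave their relation unstated, and 0 to 8 when a library was left out. With the replicate number as a block it was 0, with 1085 genes at an unadjusted p under 0.05 (limma), and the block called no member. The deviations of same-numbered libraries correlated at 0.19, 0.40 and 0.03, and those of differently numbered libraries at -0.28 to 0.15. These values do not settle whether the numbers pair the lines, and the labels state no pairing. The causes were not tested. With 3 lines per genotype, p-values measure the spread between these lines, and depth limits *Pagr1a* (61 to 135 reads) most.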
